A study of Homo sapiens with 4 samples.

Results

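The mitochondrial ribosome makes the few proteins that mitochondrial DNA encodes, all of them parts of the respiratory chain or the ATP synthase. The present account covers the nuclear genes for its protein components, named MRPL for the large subunit and MRPS for the small subunit. Members were chosen by name alone: MRPL or MRPS, a number, and at most a letter from A to C. The rule found 77 of the 47251 genes in the table, with no name repeated, of which 48 were MRPL and 29 were MRPS genes. The rule reads names and no values, although it was set with earlier results of these data known.

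Sequencing covered 4 RNA libraries of AGS cells, a line established from a human gastric adenocarcinoma. In 2 libraries the cells carried a lentiviral short hairpin RNA (shRNA) that targets MFAP2, here called sh-MFAP2 replicates 1 and 2, and in the other two they carried a control shRNA, here called control replicates 1 and 2. MFAP2 codes for a microfibril-associated glycoprotein of the extracellular matrix. All libraries came from the same line and 1 shRNA sequence was used against MFAP2, so an effect of the target and an effect of that sequence cannot be told apart. The labels do not say whether replicates were separate cultures, so p-values measure the spread between these libraries, which may be technical.

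Proteins of the mitochondrial ribosome are translated in the cytosol, imported into mitochondria and assembled on ribosomal RNA that is copied from mitochondrial DNA. The large subunit joins amino acids and holds the tunnel through which the chain leaves, and the small subunit reads the mRNA. Some members descend from bacterial ribosomal proteins and others were added during the evolution of mitochondria. The names do not always give the place: the proteins of MRPS18A and MRPS30 sit in the large subunit, and that of MRPS36 belongs to neither.

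Values are taken as FPKM, fragments scaled to the length of the transcript and to the depth of the library, since the tables do not name their unit. A gene value depends on the length assigned to the gene, so levels of different genes can be compared only in part. MRPL27, with 3027 annotated exon bases, stood at 20.1 FPKM in sh-MFAP2 replicate 1. Its leading transcript of 716 bases stood at 77.9 FPKM in the same library. Low values implied 54859500 to 74990500 reads per library, of which 232500 to 288990 fell on members, with a median of 2895 behind a member value. The level of MFAP2 was 0 FPKM with sh-MFAP2 in both libraries and 0.0116 and 0.0138 FPKM in controls, too low to check the labels. Of 8 epithelial markers 6 reached 1 FPKM in all libraries, with summed levels of 1951 to 2034 FPKM with sh-MFAP2 and 1807 to 2034 FPKM in control libraries. Of 6 blood and endothelial markers all were under 1 FPKM in all libraries, with sums of at most 0.0869 FPKM and HBB at 0. Of 6 fibroblast markers 5 were under 1 FPKM in all libraries, and the list summed to 2.12 and 2.34 FPKM with sh-MFAP2 and 4.39 and 4.96 FPKM in control libraries. Nearly all of that sum was COL1A1, a collagen chain, at 2.27 and 2.07 FPKM against 4.36 and 4.92 FPKM (adjusted p = 0.221 by limma). The part of these markers in the member values was not tested.

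The promoters of several members share short motifs, and 6 are shown because their genes return in the results: MRPS10, MRPL40, MRPL27 and MRPL46 through their differences between groups, MRPS34 through a library that stood apart, and MRPS18A as the counterpart of MRPS10 with both leading motifs. Each run holds 250 bases before and 50 bases after the annotated start, read 5′ to 3′ on the strand of the gene from RefSeq, GRCh38.p14. Capitals mark matches to CCGGAAG, a form of the motif bound by ETS factors such as GABPA, or to AAGATGGCG, a form of the motif bound by YY1, on either strand.
MRPS10, chr6:42217812-42218111, minus strand: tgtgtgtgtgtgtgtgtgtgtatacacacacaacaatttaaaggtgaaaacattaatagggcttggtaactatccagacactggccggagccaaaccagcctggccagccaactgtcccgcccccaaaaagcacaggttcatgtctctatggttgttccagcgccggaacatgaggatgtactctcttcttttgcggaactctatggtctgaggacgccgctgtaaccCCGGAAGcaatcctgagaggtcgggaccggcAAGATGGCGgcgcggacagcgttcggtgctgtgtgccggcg
MRPS18A, chr6:43687742-43688041, minus strand: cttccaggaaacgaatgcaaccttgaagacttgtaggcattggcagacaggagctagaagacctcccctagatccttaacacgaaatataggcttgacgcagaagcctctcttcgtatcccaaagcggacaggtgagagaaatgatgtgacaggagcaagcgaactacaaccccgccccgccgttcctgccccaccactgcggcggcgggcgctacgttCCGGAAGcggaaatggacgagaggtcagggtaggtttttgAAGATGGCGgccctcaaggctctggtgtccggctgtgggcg
MRPL46, chr15:88467339-88467638, minus strand: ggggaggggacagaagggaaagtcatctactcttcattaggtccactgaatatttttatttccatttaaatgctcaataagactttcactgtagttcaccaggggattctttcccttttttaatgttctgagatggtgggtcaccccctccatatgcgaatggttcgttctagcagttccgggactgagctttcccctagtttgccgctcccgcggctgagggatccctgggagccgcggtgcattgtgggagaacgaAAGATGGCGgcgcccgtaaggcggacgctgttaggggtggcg
MRPS34, chr16:1773085-1773384, minus strand: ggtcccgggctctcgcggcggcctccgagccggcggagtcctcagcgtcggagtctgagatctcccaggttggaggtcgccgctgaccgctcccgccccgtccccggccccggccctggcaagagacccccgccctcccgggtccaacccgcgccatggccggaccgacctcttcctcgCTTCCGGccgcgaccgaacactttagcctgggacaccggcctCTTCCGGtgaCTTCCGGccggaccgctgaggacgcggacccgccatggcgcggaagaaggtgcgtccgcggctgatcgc
MRPL27, chr17:50373135-50373434, minus strand: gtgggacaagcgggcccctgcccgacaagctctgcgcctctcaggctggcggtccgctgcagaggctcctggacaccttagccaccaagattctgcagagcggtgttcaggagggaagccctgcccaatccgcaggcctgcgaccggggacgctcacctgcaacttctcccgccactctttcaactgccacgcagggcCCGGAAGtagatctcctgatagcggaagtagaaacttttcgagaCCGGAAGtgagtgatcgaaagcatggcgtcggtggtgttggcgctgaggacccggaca
MRPL40, chr22:19432295-19432594, plus strand: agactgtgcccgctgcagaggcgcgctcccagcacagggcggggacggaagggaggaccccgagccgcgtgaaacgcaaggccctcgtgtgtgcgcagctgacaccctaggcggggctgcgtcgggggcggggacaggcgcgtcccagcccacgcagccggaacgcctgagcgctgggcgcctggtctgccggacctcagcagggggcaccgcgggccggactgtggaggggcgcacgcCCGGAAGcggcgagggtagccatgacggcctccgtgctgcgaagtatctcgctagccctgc
In MRPS10 the ETS match began at position -22 and the YY1 match at position 9, counted from 0 at the annotated start, and in MRPS18A they began at -31 and 9. MRPS34 held 3 ETS matches on the opposite strand, MRPL27 held 2 and MRPL40 held 1. MRPL46 held a YY1 match at position 8, and its start lies 34 bases from that of MRPS11, which runs the other way.

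The genes were expressed in every library, with listed values that spanned a 35.6-fold range, which depends in part on annotated lengths. The median of the mean levels was 20.4 FPKM for the members, against 6.43 FPKM for the 9873 genes tested, and 76 of the 77 members reached 1 FPKM in all libraries. Of the 77, 52 reached 10 FPKM in all libraries. The highest was MRPS26, a small subunit protein without a bacterial homolog, at 108.9 and 128.7 FPKM with sh-MFAP2 and 104.7 and 92.3 FPKM in controls. MRPL12, a protein of the flexible stalk that recruits translation factors, stood at 109.6 and 121.2 FPKM against 96.9 and 100.4 FPKM. Both sh-MFAP2 libraries lay above both controls for these genes, by 0.27 (SE 0.15) and 0.22 (SE 0.12) on the log2(FPKM + 1) scale, which did not pass the test (adjusted p = 0.510 and 0.489, limma). The lowest value was that of MRPL42, at 2.72 and 3.34 FPKM against 3.05 and 3.10 FPKM, where the groups overlapped. Its inferred reads, 2701 and 2985 against 2943 and 3782, lay around the member median of 2895. MRPL42 has 16393 annotated exon bases, while its leading transcript has 920, so its low value does not show few reads. MRPS30 likewise had a low value, at 3.50 and 4.13 FPKM against 3.54 and 3.75 FPKM. It has 6202 exon bases and a leading transcript of 1161.

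No member passed the test between sh-MFAP2 and control cells. All 77 reached the mean of 1 FPKM needed for testing, and 0 of 77 had both p under 0.01 and adjusted p under 0.05 by limma, against 0.273% of all genes tested (27 of 9873, of which 15 were higher and 12 lower). At an unadjusted p under 0.05 there were 3 members, or 3.90%, against 12.3% of all genes. Both sh-MFAP2 libraries lay above both controls for 16 members (20.8%), against 17.5% of genes, and below both for 9 members (11.7%), against 31.4% of genes. Differences were positive for 41 members and negative for 36, with a median log2 fold change of 0.03 against -0.05 for all genes tested. An exact permutation test of 2 against 2 libraries cannot go below p = 0.333, so none is given for single genes.

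**Figure D1:**
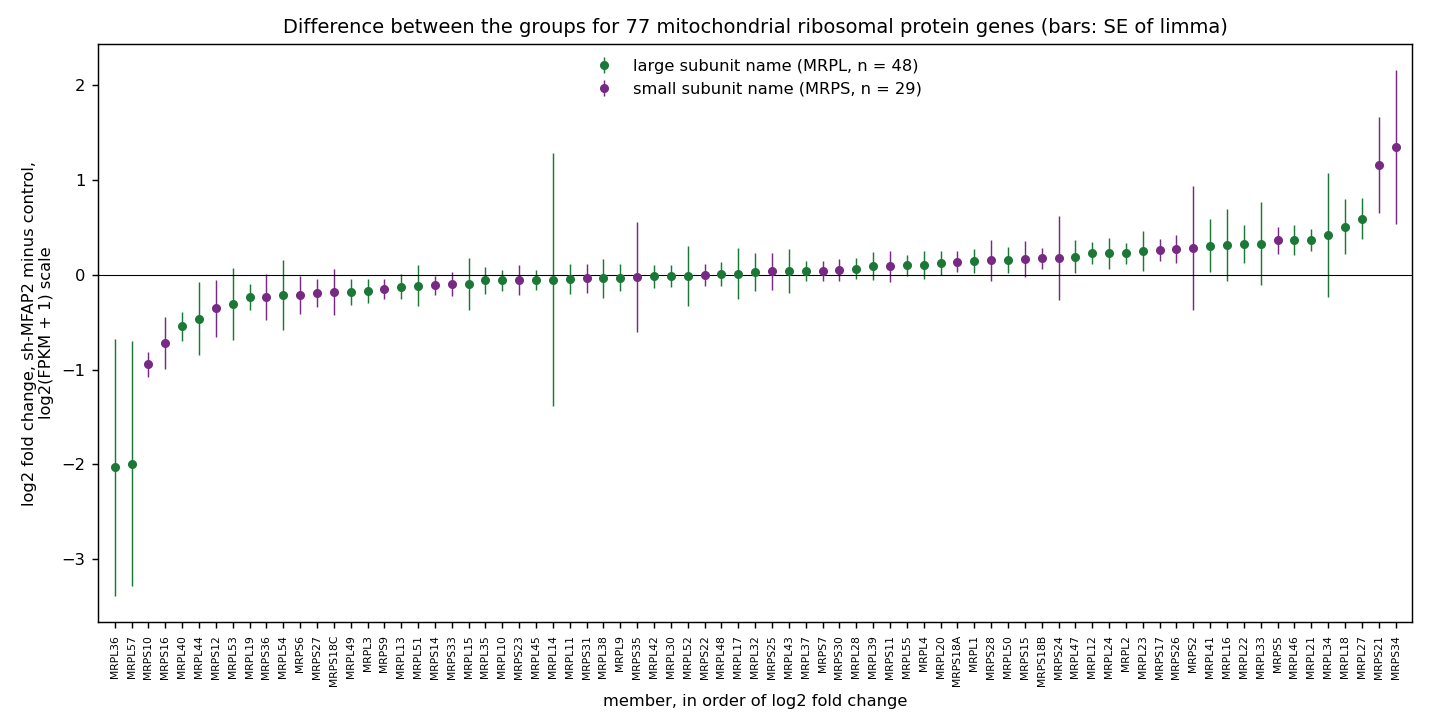
Log2 fold change of sh-MFAP2 against control on the log2(FPKM + 1) scale for the 77 members in order of size, large and small subunit names in separate colours, with bars of 1 SE from limma. Most points lie near 0, and the widest bars belong to members with 1 library far from its replicate, such as MRPL36, MRPL57 and MRPS34, or with both groups split, as MRPL14.

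The precision allowed a statement for most members. The 95% interval of the log2 fold change lay inside -1 to 1, a 2-fold change either way, for 57 of the 77, and reached beyond it for 20. The median half-width of the interval was 0.44 on the log2 scale. For 62 members (80.5%) the larger gap between replicates exceeded the difference between groups, against 65.7% of all genes tested.

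The member nearest to the threshold was MRPS10, whose protein lies in the head of the small subunit and has a bacterial homolog. It stood at 8.39 and 8.67 FPKM with sh-MFAP2 and at 19.1 and 15.8 FPKM in control libraries. Replicates were close and the groups did not overlap, with a log2 fold change of -0.95 (SE 0.14, 95% interval -1.33 to -0.56, adjusted p = 0.238, limma). In GENCODE 29 it lies at chr6:42206801-42217865 on the minus strand, with 7 exon blocks. MRPL40, a large subunit protein without a bacterial homolog (chr22:19431902-19436075, plus strand), stood at 8.65 and 10.3 FPKM against 15.5 and 13.1 FPKM. Its groups were also apart, by -0.55 (SE 0.15, adjusted p = 0.379, limma). MRPL21, a large subunit protein with a bacterial homolog, went the other way, at 31.7 and 32.6 FPKM against 26.1 and 23.4 FPKM, a log2 fold change of 0.37 (SE 0.11, adjusted p = 0.394, limma). Since the groups of all 3 do not overlap, leaving out a library cannot turn their direction and shows only the size. The log2 fold changes were then -1.08 to -0.82 for MRPS10, -0.66 to -0.43 for MRPL40 and 0.29 to 0.44 for MRPL21.

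Large and small subunit genes did not part. The median log2 fold change was 0.02 for the 48 MRPL genes (26 positive, 22 negative). It was 0.03 for the 29 MRPS genes (15 positive, 14 negative), a difference of -0.02. Between sh-MFAP2 replicates (2 minus 1) the median gap was 0.23 for MRPL and 0.21 for MRPS genes. Between control replicates it was -0.12 and -0.06. The difference of median levels, large minus small, had an SD of 0.12 between replicates, which measures levels and not fold changes. Placing the proteins of MRPS18A and MRPS30 with the large subunit and leaving out MRPS36 gave 0.03 for 50 large and 0.02 for 26 small subunit genes. The summed level of MRPL over that of MRPS genes was 1.86 and 1.95 in sh-MFAP2 and 2.06 and 2.13 in control libraries, lower in both sh-MFAP2 libraries. That order rested on members with uneven libraries. Without the 7 members whose highest library was 3 times or more the lowest, a choice made after seeing the data, the ratios were 2.36 and 2.30 against 2.26 and 2.18, higher in both. Members classed as direct counterparts of a bacterial protein, here called bacterial homologs (46), had a median of 0.09 and the other 31 a median of -0.02, with 0 called in either class. Of the S18 paralogs described below only MRPS18C was put in the first class, and the diverged MRPS18A and MRPS18B were counted among the 31.

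Within the large subunit, genes were grouped by the place of their proteins. The central protuberance (MRPL18, MRPL27, MRPL38, MRPL46, MRPL48), the crest at the top of the subunit, had 4 of 5 genes with a positive difference, 3 of them with sh-MFAP2 above control in all libraries, and a median of 0.36, where 4151 of the 9873 genes tested were positive and 17.5% lay above control in this way. With 5 genes and none called, nothing particular to the protuberance is shown. MRPL27 stood at 20.1 and 13.5 FPKM against 10.8 and 10.5 FPKM (log2 fold change 0.59, SE 0.22, adjusted p = 0.415, limma). MRPL18, the counterpart of a bacterial protein that binds a small ribosomal RNA, stood at 50.7 and 64.6 FPKM against 50.6 and 31.6 FPKM. For MRPL18 the control libraries differed from each other more than the groups did. MRPL46 stood at 5.07 and 4.80 FPKM against 4.16 and 3.12 FPKM, but 69.7% of the 50-base stretches of its leading transcript also occur in the readthrough gene AC013489.1, so reads may have been split between them. The tunnel exit (MRPL22, MRPL23, MRPL24, MRPL45, MRPL47) had 4 of 5 positive differences with a median of 0.22, and MRPL24 stood at 23.1 and 29.7 FPKM against 21.8 and 22.8 FPKM. Around the peptidyl transferase centre (MRPL2, MRPL3, MRPL4, MRPL16) the median was 0.16 with 3 of 4 positive. Here the groups were apart in opposite directions for MRPL2, at 15.03 and 16.6 against 13.7 and 13.1 FPKM, and for MRPL3, at 42.2 and 48.4 against 51.9 and 50.3 FPKM. The stalk and its base (MRPL10, MRPL11, MRPL12) had a median of -0.05. None of these genes passed the test.

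Within the small subunit, the head (MRPS7, MRPS9, MRPS10, MRPS14, MRPS24) had 3 of 5 genes with sh-MFAP2 below control in all libraries and a median of -0.11, where 31.4% of all genes tested lay below control in this way. Besides MRPS10 these were MRPS9, at 26.3 and 27.5 FPKM against 30.6 and 29.2 FPKM, and MRPS14, at 3.78 and 4.10 FPKM against 4.32 and 4.35 FPKM. Both differences were small, with log2 fold changes of -0.15 (SE 0.10) and -0.11 (SE 0.10). MRPS16, a body protein with a bacterial homolog, stood at 15.6 and 25.8 FPKM against 35.1 and 32.6 FPKM (log2 fold change -0.72, SE 0.27, adjusted p = 0.415, limma). Its sh-MFAP2 replicates differed by 0.69 on the same scale. In the decoding region MRPS5 stood at 10.8 and 8.73 FPKM against 7.23 and 7.47 FPKM, a log2 fold change of 0.36 (SE 0.14, adjusted p = 0.415, limma), while MRPS12 had the opposite sign at -0.35. The platform (MRPS6, MRPS11, MRPS15, MRPS18C, MRPS21) had a median of 0.09 and 3 of 5 positive differences.

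Humans have 3 paralogs of the bacterial S18 protein, and they differed more in listed level than between groups. MRPS18A stood at 41.3 and 45.8 FPKM against 39.4 and 39.5 FPKM, and MRPS18B at 30.4 and 33.3 FPKM against 27.8 and 28.4 FPKM. Both had sh-MFAP2 above control in all libraries, by 0.14 (SE 0.11) and 0.17 (SE 0.11) on the log2 scale. MRPS18C was lower in listed level, at 4.86 and 7.98 FPKM against 7.12 and 7.34 FPKM, with overlapping groups. MRPS18C has 4866 annotated exon bases and MRPS18A has 1284, so the size of that gap depends in part on the annotation. None of the 3 passed the test.

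**Figure D2:**
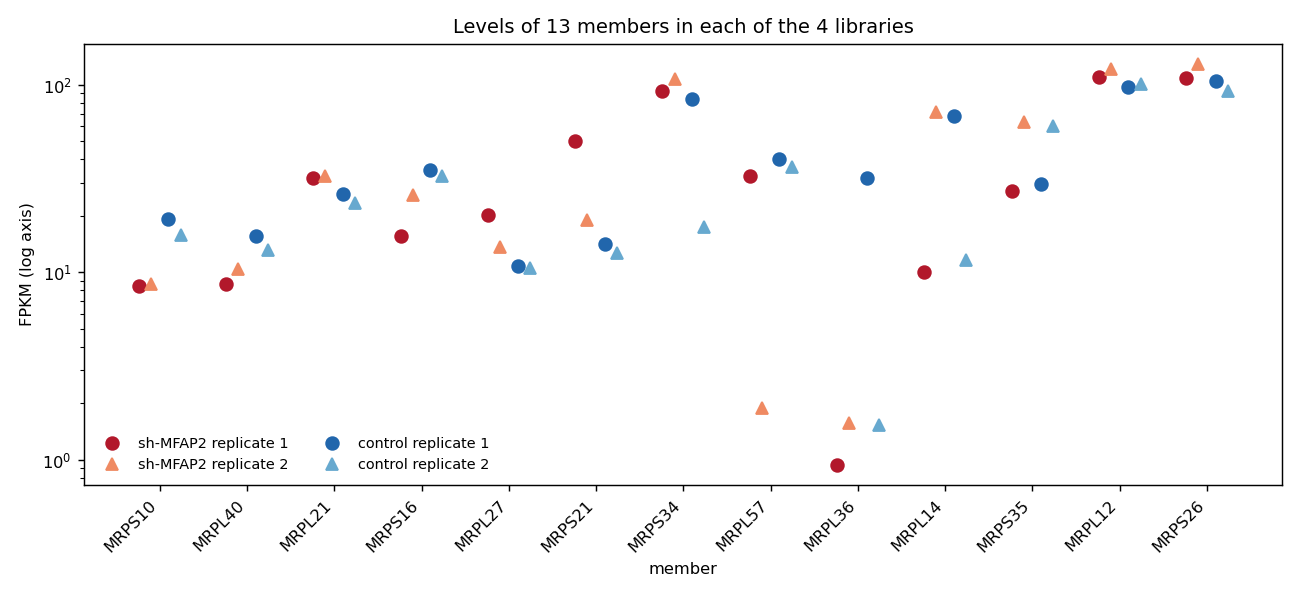
Level in FPKM on a log axis of 13 members in each of the 4 libraries, with circles for replicate 1 and triangles for replicate 2 of sh-MFAP2 (red and orange) and control (blue). MRPS10 shows the groups apart with close replicates, whereas MRPL57, MRPS34 and MRPL36 each have 1 library far from the other 3.

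The members with the largest differences owed them to 1 library each, named here because their values decide the fold change. MRPL36, a small large-subunit protein with a bacterial homolog, stood at 0.939 and 1.56 FPKM with sh-MFAP2 and 31.7 and 1.54 FPKM in control libraries, so only control replicate 1 was high. Its log2 fold change of -2.03 (SE 1.35) was -0.19 without control replicate 1. MRPL57, a large subunit protein without a bacterial homolog, stood at 32.6 and 1.88 FPKM against 40.0 and 36.3 FPKM, with sh-MFAP2 replicate 2 low. Its log2 fold change of -1.99 (SE 1.30) was -0.22 without that library. MRPS34, a small subunit protein without a bacterial homolog that the subunit needs for stability, stood at 92.2 and 107.0 FPKM against 83.8 and 17.5 FPKM. There control replicate 2 was low, and the log2 fold change of 1.34 (SE 0.81) was 0.24 without it. MRPS21, a platform protein, stood at 50.2 and 18.9 FPKM against 14.1 and 12.6 FPKM, and its log2 fold change of 1.15 (SE 0.51) was 0.47 without sh-MFAP2 replicate 1. MRPL14, at the face between the subunits, was uneven in both groups, at 10.1 and 71.3 FPKM against 67.7 and 11.6 FPKM, and MRPS35 likewise, at 27.1 and 63.4 FPKM against 29.5 and 60.4 FPKM. In MRPL14 and MRPS35 the replicates of a group lay apart and the groups overlapped. Such uneven genes were about as common elsewhere: 7 members (9.09%) and 9.36% of all genes tested had a highest library 3 times or more the lowest, and 2 members (2.60%) and 2.06% of genes had a library under 10% of the highest.

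Most members shifted the same way between replicates of a group. Their median absolute gap was 0.25 between sh-MFAP2 replicates and 0.14 between control replicates, and their median absolute log2 fold change was 0.16. A gap between single libraries spreads more by construction than a difference of group means, so these sizes are not directly comparable. Of the 77 members, 67 were higher in sh-MFAP2 replicate 2 than in replicate 1 (87.0%, against 56.0% of all genes tested), and 56 were higher in control replicate 1 than in replicate 2 (72.7%, against 48.3%). The highest library was sh-MFAP2 replicate 2 for 44 members and control replicate 1 for 22. The lowest was sh-MFAP2 replicate 1 for 38 members and control replicate 2 for 26. Members summed to 1807 and 2223 FPKM with sh-MFAP2 and to 2052 and 1756 FPKM in control libraries, or 0.935% to 1.11% of each library's total. Without sh-MFAP2 replicate 1 the median log2 fold change of the members was 0.19, and without sh-MFAP2 replicate 2 it was -0.09, so the sign of the median turned on which library was kept.

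**Figure D3:**
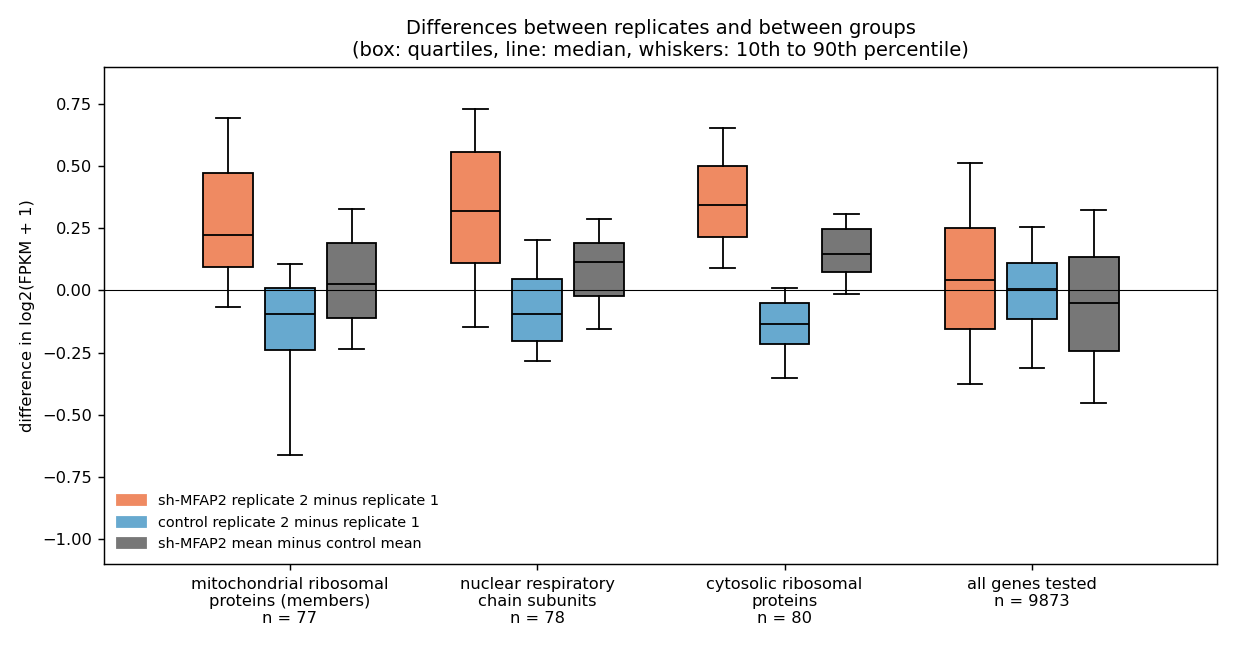
Differences on the log2(FPKM + 1) scale between sh-MFAP2 replicates (2 minus 1), between control replicates (2 minus 1) and between group means, for 77 members, 78 respiratory chain genes, 80 cytosolic ribosomal protein genes and 9873 genes tested, as boxes of quartiles with a line at the median and whiskers to the 10th and 90th percentile. Members are shifted up between the sh-MFAP2 libraries (median 0.22) and down between the controls (median -0.10), while the group difference centres near 0.

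Other genes whose products work with the ribosome were taken from lists. The same library order held for 80 cytosolic ribosomal protein genes, of which 78 were higher in sh-MFAP2 replicate 2 than in replicate 1 and 69 higher in control replicate 1 than in replicate 2, and for 78 nuclear respiratory chain genes, with 66 and 51. Their median log2 fold changes were 0.14 and 0.12, with 0 genes called in either list. Positive differences numbered 68 of 80 and 56 of 78. Of 29 assembly factors 1 was called, against 0.273% of all genes tested, with 15 differences positive, 14 negative and a median of 0.01. It was DDX28, an RNA helicase of large subunit assembly, at 15.4 and 12.9 FPKM with sh-MFAP2 and listed at 0 in both controls (adjusted p = 0.015, limma). With the replicate number as a block, 0 of all 9873 genes were called, and leaving out any library also dropped every call. The call of DDX28 was lost there too, so its loss is not particular to this gene. The gene MRM3, for a methyltransferase that modifies the large ribosomal RNA, stood at 6.03 and 5.97 FPKM against 12 and 9.87 FPKM, a log2 fold change of -0.76 (SE 0.14) that did not pass the test (adjusted p = 0.302, limma). No gene was called among 18 translation factors (median -0.05), 4 tested of 5 transcription factors (median -0.29) or 12 tested of 15 regulators of nuclear mitochondrial genes (median -0.01).

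Genes of ribosomal proteins outside the MRPL and MRPS names lay within the range of the member values, apart from GADD45GIP1 in control replicate 2. DAP3, a GTP-binding protein of the small subunit, stood at 29.8 and 31.9 FPKM against 33.1 and 32.6 FPKM, and ICT1, a large subunit protein that releases stalled chains, at 33.8 and 29.8 FPKM against 35.1 and 29.9 FPKM. AURKAIP1 stood at 63.3 and 83.7 FPKM against 69.8 and 63.7 FPKM, CHCHD1 at 17.3 and 21.4 FPKM against 19.4 and 15.6 FPKM, and PTCD3 at 9.40 and 10.4 FPKM against 8.38 and 8.91 FPKM. GADD45GIP1 stood at 44.2 and 35.5 FPKM against 45.8 and 0.290 FPKM, so control replicate 2 was low, as for MRPS34. The ribosomal RNAs gave no usable level: MT-RNR1 was listed at 0 in all libraries, and MT-RNR2 at 124 FPKM in sh-MFAP2 replicate 1, 0 in replicate 2 and 0.837 and 0.955 FPKM in controls.

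In a few members the transcripts differed between groups more than the gene total did, without passing the test. The table listed 460 transcripts of the members, of which 193 reached a mean of 1 FPKM. None was called, and 11 (5.70%) had an unadjusted p under 0.05, against 7.64% of all 22312 transcripts tested. For 53 members a single transcript held over 80% of the gene's sum of FPKM times transcript length. The smallest p belonged to MRPL12. Its transcript ENST00000541223 of 887 bases stood at 119 and 138 FPKM with sh-MFAP2 and 55.9 and 58.0 FPKM in control libraries (log2 fold change 1.16, SE 0.16, adjusted p = 0.304, limma). Its transcript ENST00000333676 of 1028 bases stood at 6.86 and 1.75 FPKM against 48.6 and 50.3 FPKM (log2 fold change -3.44, SE 0.58, adjusted p = 0.368, limma). The shorter transcript was higher and the longer lower in both sh-MFAP2 libraries, while the gene totals differed by 0.22. In GENCODE 29, 68.2% of the exon bases of MRPL12 also lie in another gene on the same strand, and the shorter transcript is absent from that release, so the split between the 2 depends on the annotation used.

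Further members had a transcript with groups apart. In MRPS27, a small subunit protein without a bacterial homolog, ENST00000457646 stood at 0.849 and 0.894 FPKM against 7.01 and 3.56 FPKM (log2 fold change -1.69, SE 0.35, adjusted p = 0.443, limma). In MRPL34, a large subunit protein with a bacterial homolog, ENST00000595444 stood at 12.1 and 11.9 FPKM against 19.5 and 21.4 FPKM (log2 fold change -0.72, SE 0.17, adjusted p = 0.505, limma). The other main transcript of MRPL34, ENST00000252602, was high only in sh-MFAP2 replicate 2, at 2.12 and 39.98 FPKM against 1.04 and 1.15 FPKM. For MRPS34 the low control library was low in the leading transcript, ENST00000397375, at 87.3 and 101.9 FPKM against 80.4 and 7.87 FPKM. The retained-intron transcript of that gene, ENST00000569585, went the other way, at 1.72 and 1.24 FPKM against 1.04 and 11.3 FPKM. For MRPL36 the high control library was high in ENST00000505059, at 1.03 and 2.18 FPKM against 50.3 and 2.62 FPKM.

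**Figure D4:**
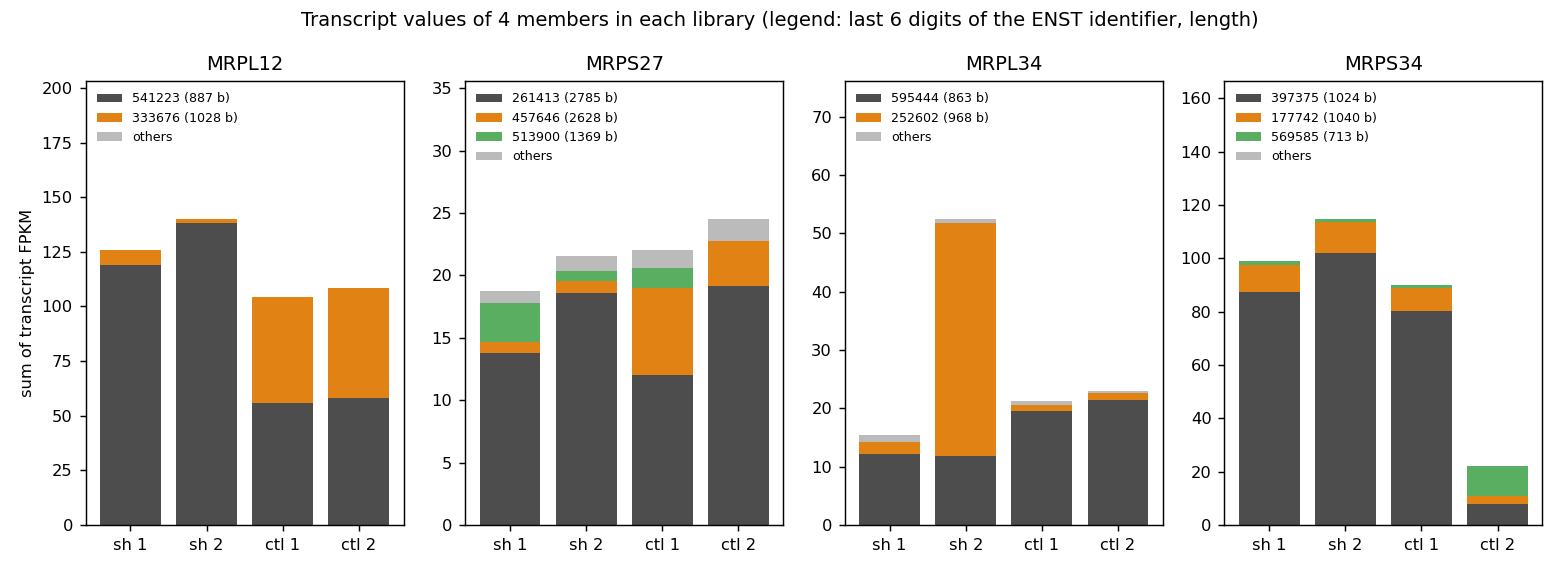
Stacked bars of transcript FPKM in the sh-MFAP2 (sh) and control (ctl) libraries for MRPL12, MRPS27, MRPL34 and MRPS34, with colours for single transcripts and grey for all others of the gene. In MRPL12 the longer transcript is a large segment in both controls and a small one in both sh-MFAP2 libraries, and in MRPS34 the bar of control replicate 2 is the lowest and the retained-intron transcript its largest segment.

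The members were spread over 21 chromosomes. For 18 of them (23.4%) a protein-coding gene starts within 1000 bases on the other strand, among them the pair MRPL46 and MRPS11. The median length of a member, averaged over its transcripts by level, was 1267 bases against 2603 bases for all genes tested, and log2 fold changes fell with length by 0.10 per doubling over all genes. With that trend removed the median log2 fold change of the members was -0.06, against -0.05 for all genes. The leading transcript was found in the annotation for 74 members, and those of MRPL12, MRPL22 and MRPS30 were not assessed for shared stretches. For 40 members the leading transcript shared no 50-base stretch with another gene. For 4 (MRPS24, MRPL46, MRPL38, MRPL53) it shared over 50%, so their levels are uncertain. The level of MRPL12 is uncertain too, since 68.2% of its exon bases also lie in another gene on the same strand.

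Promoter windows from RefSeq were matched for 69 of the 77 members. The window of MRPS36 was matched under its present symbol KGD4. The ETS motif CCGGAAG was in the window of 29 of the 69 (42.0%), against 24.8% of the 7579 tested genes that have a window and 12.2% of all 27305 genes. The YY1 motif AAGATGGCG was in 13 (18.8%), against 5.46% and 2.14%. The NRF1 motif GCGCANGCG was in 14 (20.3%), against 18.4% and 9.02%. Both strands were searched, no match to one of these motifs overlapped a match to another, and 46 of the 69 (66.7%) held at least 1 of the 3, against 41.6% of genes tested. The general promoter motifs were not more frequent in the members: CCAAT was in 33.3% against 43.3% of genes tested, and TATAAA in 5.80% against 7.44%. Differences between groups did not follow the motifs, with a median log2 fold change of -0.01 with and 0.04 without the ETS motif, 0.05 and 0.01 for YY1, and -0.06 and 0.04 for NRF1. The matches are letters in a window and not shown binding.

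**Figure D5:**
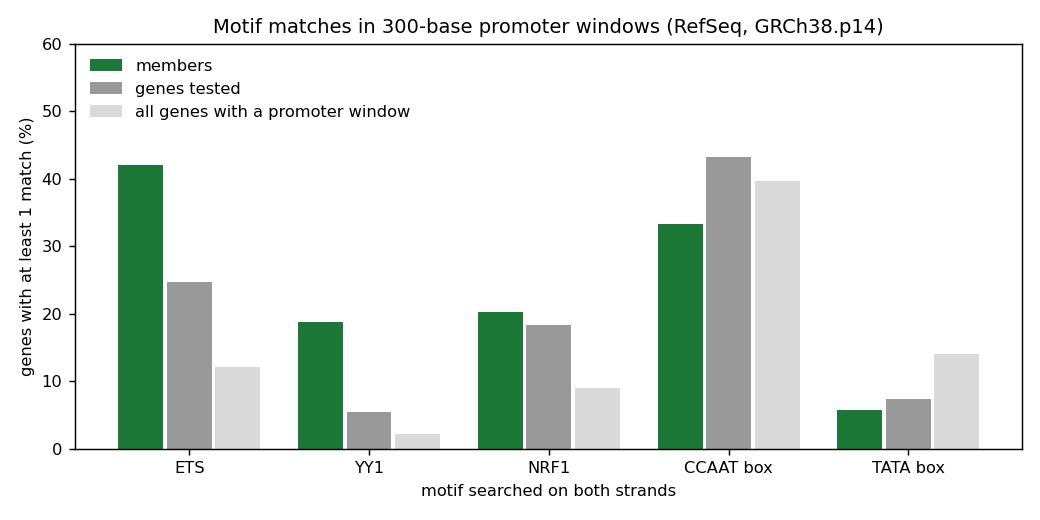
Percent of genes with at least 1 match to each motif in a promoter window, for 69 members, for genes tested and for all genes with a window. The ETS and YY1 bars are higher for the members than for both other sets, and the CCAAT and TATAAA bars are not.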

How the data were processed

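RNA of AGS cells was sequenced in 2 sh-MFAP2 and 2 control libraries, grouped by their labels. The authors deposited tables of gene and transcript values that name no unit. The deposited values are taken as FPKM from the values themselves. The submitters' processing notes name the build hg38. The aligner, counter and annotation are not given in the sources used here. Between 65.2% and 66.5% of low values lay within tolerance of a whole step, from which depth was inferred. A step fixed beforehand would give 10% by chance, but this step was chosen to fit the same values, so its chance level is higher and not known. Reads were not recovered and no count test was run.

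Genes, and separately transcripts, with a mean of at least 1 FPKM were compared as log2(FPKM + 1) values by lmFit and eBayes (variance trend on) from limma 3.58.1 in R 4.3.3, and p-values were adjusted over all tested by Benjamini-Hochberg. A fold change on this scale understates that of low genes. The fit was tested on simulated data. The study's random variance model test was replaced by limma, and its thresholds (p under 0.01, adjusted p under 0.05) were kept. Tables and figures used Python 3.11.15, pandas 2.3.3, numpy 2.4.6 and matplotlib 3.10.9. Coordinates are from GENCODE 29 on GRCh38 and promoters from RefSeq, GRCh38.p14.

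Named members were those with unadjusted p under 0.05, then, up to 24 in all, those with the largest difference and groups apart, those with a library under 10% of the highest at 5 FPKM or more, the 3 highest and 3 lowest in level, the S18 paralogs and MRPS30. MRPL14, MRPL34, MRPS12, MRPS27, MRPS35 and the transcripts were named after their values were seen. The members and lists were chosen with earlier results of these data known. Alternatives were no filter, a mean of 5 FPKM, a pseudocount of 0.1, quantile normalization, a block for the replicate number, median of ratios, no variance trend, sums of transcripts, removal of a length trend and leaving out each library. Without the 7 uneven members was added after seeing the data.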

Additional observations from a re-analysis of the deposited data

How the results depend on the processing

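No member was called under any of the alternatives. The number of members with an unadjusted p under 0.05 by limma (3) was 5 with quantile normalization, 5 with sums of transcripts and 2 to 13 when a library was left out, with 10 without sh-MFAP2 replicate 1 and 13 without sh-MFAP2 replicate 2. The number with groups apart (25) was 43 to 61 when a library was left out. It was 61 and 57 without sh-MFAP2 replicates 1 and 2, and 43 without either control. With 1 library in a group, separation is easier by construction for every gene. Shares over all genes tested are not given for any of these counts, so nothing particular to the members is shown. Leaving out a library gave median log2 fold changes of -0.070 to 0.21 for MRPL genes, highest without sh-MFAP2 replicate 1, -0.16 to 0.13 for MRPS genes and -0.09 to 0.19 for all members. The difference of medians, large minus small subunit, was 0.04 to 0.09 on leaving out a library against -0.02 with all 4. MRPL42 turned positive with quantile normalization (0.056), median of ratios (0.034) and sums of transcripts (0.040), and MRPS30 turned negative with the length trend removed (-0.012). Leaving out a library gave -0.13 to 0.092 for MRPL42, -0.49 to 0.13 for MRPS18C and -0.045 to 0.14 for MRPS30. Causes were not tested.

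With the replicate number as a block, 1 member had an unadjusted p under 0.05 and 0 were called, as were 0 of all 9873 genes. Deviations of same-numbered libraries had a correlation of -0.06 over genes tested and -0.18 over members, which are not replicates. A correlation over genes cannot decide whether the numbers pair the libraries, and the labels do not say. Of all genes tested, 27 were called with all libraries, 6 with no filter, 9 at a mean of 5 FPKM and 0 on leaving out any library. MRPS10, MRPL40 and MRPL21 had intervals that left out 0 and still were not called, so with 2 libraries a group a difference had to exceed its interval's half-width by some margin to be called.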
